A study of Mus musculus with 2 samples.

Results

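Tsn, Mki67ip and Clasp1 are neighbouring protein-coding genes of mouse chromosome 1, and their promoters were followed as viewpoints in a capture Hi-C contact map. A viewpoint here is the 10 kb bin that holds the annotated start of a gene, read against every other bin of the map from 120.18 Mb up. The viewpoints were 3 bins of the 475 in the map, of which 422 lay above that limit. The rule used gene names and start positions, and no contact value.

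The map came from wild-type limb buds of mouse embryos at E10.5 and covers the neighbourhood of En1, a homeobox gene of limb patterning. Forelimbs and hindlimbs (labelled "Forelimb Hindlimb") were dissociated, fixed in 2% PFA (paraformaldehyde), cut with DpnII, religated and captured with custom probes. The labels give 2 samples, both with the genotype Wild type and the same replicate number in their titles, and do not say whether they are separate embryo pools or runs of 1 library. The authors deposited them as 1 merged map with no second condition. There was thus no replicate error, no test between groups and no p-value: each interval below is a 95% interval for counting error in that merged map.

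In Hi-C, fragments that lay close together in the fixed nucleus are joined, and each sequenced read pair reports 1 such contact. Contacts fall with distance along the chromosome, and stretches separated by boundaries, where CTCF and cohesin often sit, contact each other less than their distance alone would give. Tsn encodes translin, which binds RNA and single-stranded DNA and works with the translin-associated protein Tsnax. Mki67ip, also named Nifk, encodes a nucleolar RNA-binding protein that binds the proliferation marker protein Mki67. Clasp1 encodes a CLIP-associating protein that tracks and stabilises the plus ends of microtubules. All are widely expressed genes with general cellular roles, in contrast to the tissue-restricted regulators En1 and Gli2 of the same map.

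Tsn (ENSMUSG00000026374.8) lies on the minus strand from 120195094 to 120207709, and its start falls in the bin chr1:120200001-120210000. Mki67ip (ENSMUSG00000026377.6) lies on the plus strand from 120218416 to 120230399, with its start in the next bin, chr1:120210001-120220000. The promoters of this pair therefore face away from each other, with the starts 10.71 kb apart. Clasp1 (ENSMUSG00000064302.6) is on the plus strand, starts at 120.286 Mb in the bin chr1:120280001-120290000 and ends at 120.506 Mb, a body of 220.4 kb. Its start lies 67.22 kb from that of Mki67ip and 77.93 kb from that of Tsn. Each start is the first base of an annotated exon 1 and lies in the 5′ UTR. The coordinates are on NCBIM37, the assembly also called mm9, with gene models from GENCODE M1.

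The 150 bases upstream of each start are printed because they are the promoter sequence that the viewpoints stand for. They are written 5′ to 3′ on the strand of the gene, with capitals marking a match to the CTCF core consensus on either strand. The windows are chr1:120207710-120207859 on the minus strand for Tsn, chr1:120218266-120218415 on the plus strand for Mki67ip and chr1:120285485-120285634 on the plus strand for Clasp1.
Tsn promoter: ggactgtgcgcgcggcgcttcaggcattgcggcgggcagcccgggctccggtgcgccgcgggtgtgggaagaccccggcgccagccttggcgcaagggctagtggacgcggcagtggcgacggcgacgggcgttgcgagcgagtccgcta
Mki67ip promoter: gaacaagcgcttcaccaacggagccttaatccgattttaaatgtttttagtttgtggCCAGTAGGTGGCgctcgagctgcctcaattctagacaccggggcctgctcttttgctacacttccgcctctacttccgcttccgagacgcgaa
Clasp1 promoter: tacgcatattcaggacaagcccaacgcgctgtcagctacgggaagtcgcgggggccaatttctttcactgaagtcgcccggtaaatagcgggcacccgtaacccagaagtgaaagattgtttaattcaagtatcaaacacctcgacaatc

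The Tsn window was the richest in G and C, at 75.3% with 24 CpG dinucleotides, against 52% and 11 CpG for Mki67ip and 50% and 11 CpG for Clasp1. The Mki67ip window held 1 match to the CTCF consensus, on the plus strand at chr1:120218323-120218334, which ends 82 bases upstream of the start. The other promoter windows held 0. Of 1238 protein-coding genes of chromosome 1, 6 (0.485%) had a match in the same 150-base window, and 29 of the 422 bins used (6.87%) held a match anywhere. Because the contacts of Mki67ip turn out to be high in a boundary bin that also holds a match, both are printed with 9 bases on each side, on the strand of the match. The second lies at chr1:120656340-120656351 on the minus strand, beyond Tcfcp2l1 and in no gene. The matches thus lie on opposite strands. They are not the only ones near: the bin at 120230001, next to the Mki67ip gene, holds a plus-strand match at chr1:120232594-120232605, printed last because its bin has contacts like those of the Mki67ip start. The bins at 120620001 and 120660001, the one below and the other above the boundary bin, also hold minus-strand matches. A match describes letters only and is not evidence of binding.
Mki67ip promoter match (chr1:120218314-120218343, plus strand): agtttgtggCCAGTAGGTGGCgctcgagct
Boundary bin match (chr1:120656331-120656360, minus strand): cttgtcttgCCAGCAGGTGGCagtagatgg
Match above Mki67ip (chr1:120232585-120232614, plus strand): aacaatataCCAGTAGGTGGCaacagagcc

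The Tsn bin had a total of 19639 read pairs (19365 to 19916), the Mki67ip bin 20607 and the Clasp1 bin 18909, against a median of 23886 over the bins used. Part of each total joins fragments inside the bin and says nothing about other positions. That part was 38.0% for Tsn, 32.6% for Mki67ip and 21.1% for Clasp1, with a median of 21.6% over the bins used. What remained with other bins from 120.18 Mb up was 11329 read pairs for Tsn, 13293 for Mki67ip and 14634 for Clasp1. So the viewpoints were about equally deep, but Clasp1 spread more of its read pairs to other bins.

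Contacts are given as observed/expected, the read pairs counted over those expected from distance and from the coverage of both bins. Summed over every partner, this ratio was 0.996 for Tsn, 1.10 for Mki67ip and 1.20 for Clasp1, the reverse order of their within-bin shares. The part of the within-bin share in the ratios was not tested. For sums over the Clasp1 body, distance ranges and stretches, a second scale is given where the order of the genes depends on it. It is the share of the read pairs of a viewpoint over its expected share, which takes out the difference in the overall ratio.

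The start bins were joined to one another by more read pairs than expected, most clearly Mki67ip to Clasp1. The Mki67ip and Clasp1 bins, 70 kb apart, shared 281 read pairs where 191 were expected, a ratio of 1.47 (1.30 to 1.65). That was higher than 95.2% of the 415 bin pairs at the same distance. The raised contact was not confined to the start bins. From Clasp1 the bins between these starts ran from 1.11 to 1.82, the latter at 120220001, next to the Mki67ip start bin. From Mki67ip the bins 120270001 and 120290001, on either side of the Clasp1 start bin, were at 1.25 and 1.48. Those from 120220001 to 120270000 were at 0.747 to 0.943. The adjacent Tsn and Mki67ip bins shared 1876 read pairs, 1.16 times expected (1.11 to 1.21), higher than 78.4% of 421 pairs. Tsn and Clasp1, the pair farthest apart, shared 199 read pairs, 1.19 times expected (1.03 to 1.36) and higher than 75.6% of 414 pairs. The intervals of the contacts of Tsn with its partners overlap each other, so no order between those could be read. With distance alone in the expected value, the ratio was 1.05 for Tsn and Mki67ip, 1.04 for Tsn and Clasp1 and 1.31 for Mki67ip and Clasp1.

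Seen from each start, most contacts pointed to higher coordinates, because the usable map extends much farther on that side. The share going up was 83.9% (83.2 to 84.6%) for Tsn, 80.2% (79.6 to 80.9%) for Mki67ip and 73.5% (72.8 to 74.2%) for Clasp1. The shares expected from distance and coverage were 84.1%, 79.2% and 77.0%. Tsn thus sat at its expected share, Mki67ip slightly above it and Clasp1 below it.

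With the same number of bins on both sides, Mki67ip leaned toward Tsn and away from its own gene body. Over 3 bins each way it had 1912 read pairs upward and 2626 downward, an upward share of 42.1% (40.7 to 43.6%) where 48.8% was expected. Its upward contacts were 0.802 times expected and its downward contacts 1.05 times, a ratio between sides of 0.763 (0.719 to 0.809). The low value came mainly from the next bin up, chr1:120220001-120230000, which holds most of the Mki67ip gene. That bin shared 1270 read pairs with the start bin, 0.747 times expected (0.706 to 0.789).

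Tsn, with only 2 bins below it above the limit, showed no lean over 2 bins each way, at 56.9% (55.4 to 58.4%) where 56.2% was expected. Its gene body runs downward from the start, opposite to Mki67ip, and the bin that holds the rest of it was contacted 1.01 times expected. Its second bin up, the same bin in the Mki67ip gene, had 536 read pairs, 0.765 times expected (0.702 to 0.833). Clasp1 had 55.4% (54.4 to 56.5%) over 10 bins each way, where 56.9% was expected, and both of its sides were above expected, at 1.38 below and 1.30 above. Its nearest bin below shared 991 read pairs, 1.48 times expected (1.39 to 1.57), and its nearest bin above, in its own body, 1235 read pairs, 1.21 times expected (1.14 to 1.28). The bins 20 and 30 kb above it were at 0.984 (0.915 to 1.06) and 0.944 (0.851 to 1.05). Clasp1 thus had raised contacts on both sides in the sums over 10 bins, but not in each near bin above it. Its ratio over all partners was 1.20, so its nearest bin above was not raised beyond its contacts in general.

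The clearest difference among the viewpoints lay along the Clasp1 body, where Mki67ip had more contacts relative to expected than Clasp1 itself. From the Mki67ip start 3762 read pairs fell in the 23 bins of the body, 28.3% of its contacts (27.5 to 29.1%) where 20.8% was expected. Observed/expected was 1.501 (1.45 to 1.55). Tsn, 1 bin farther away, had 2585 read pairs in the same bins, 22.8% (22.1 to 23.6%) where 20.6% was expected, a ratio of 1.11 (1.06 to 1.15). Clasp1 had 6002 read pairs in the 22 body bins other than its own, 41.0% (40.2 to 41.8%) of its contacts.

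For Clasp1 the reading depends on the scale. Its body ratio was 1.19 (1.16 to 1.22) in read pairs over expected, but its share was 0.992 times the expected share of 41.4% (0.973 to 1.01), so its contacts with its own body were not raised beyond its contacts overall. With distance alone in the expected value its ratio was 1.00. For Mki67ip the share was 1.36 times expected (1.32 to 1.40) and for Tsn 1.11 times (1.07 to 1.15). Mki67ip led on both scales.

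Compared over the 22 body bins common to all, the Mki67ip ratio was 1.37 times that of Tsn (1.30 to 1.44), although the bins of these genes are adjacent. Mki67ip was the higher in 20 of the 22 bins. Clasp1 was 1.08 times Tsn (1.03 to 1.13) and 0.790 times Mki67ip (0.757 to 0.824). Each of these 3 intervals excludes 1. The difference between Clasp1 and Tsn is nevertheless not settled: Clasp1 was higher in 11 of the 22 bins, and it was the lower as share over expected share (0.992 against 1.11) and with distance alone (1.00 against 1.06).

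The raised contacts were not spread evenly over the body. The highest bin from each start lay between 120350001 and 120380000, and past 120410000 all 3 viewpoints dropped. In the first section, up to 120360000, observed/expected was 1.10 (1.04 to 1.17) for Tsn, 1.46 (1.39 to 1.53) for Mki67ip and 1.27 (1.23 to 1.31) for Clasp1. In the middle section of 7 bins, from 120360001 to 120430000, it was 1.31 (1.23 to 1.39), 1.89 (1.80 to 1.99) and 1.21 (1.15 to 1.27). In the last section of 8 bins, from 120430001 to 120510000, it was 0.790 (0.714 to 0.871), 0.951 (0.869 to 1.04) and 0.769 (0.705 to 0.838).

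Bin by bin the drop began at 120410001, where Mki67ip went from 1.94 to 1.19, Tsn from 1.35 to 0.905 and Clasp1 from 1.17 to 0.806. An insulation minimum was called 20 kb farther up, in the bin that begins at 120430001 inside the Clasp1 gene, with a score of −0.36 and a prominence of 0.50. The score is the log2 of the contacts across a bin, within 150 kb on each side, relative to the median bin. In the middle section Mki67ip was 1.45 times Tsn (1.34 to 1.56) and Clasp1 was 0.639 times Mki67ip (0.595 to 0.686), lower in every one of the 7 bins. In the last section Mki67ip was still 1.20 times Tsn (1.05 to 1.38). The Clasp1 and Tsn ratios did not differ there beyond counting error (0.975, 0.854 to 1.11). As share over expected share, Clasp1 was at 0.643 (0.591 to 0.699) in that section. Tsn was at 0.793 (0.720 to 0.873) and Mki67ip at 0.861 (0.790 to 0.938), whose intervals overlap each other but not that of Clasp1. On that scale Clasp1 was at 1.06 and Tsn at 1.10 in the first section. In the middle section Clasp1 was at 1.01 (0.962 to 1.06).

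**Figure D1:**
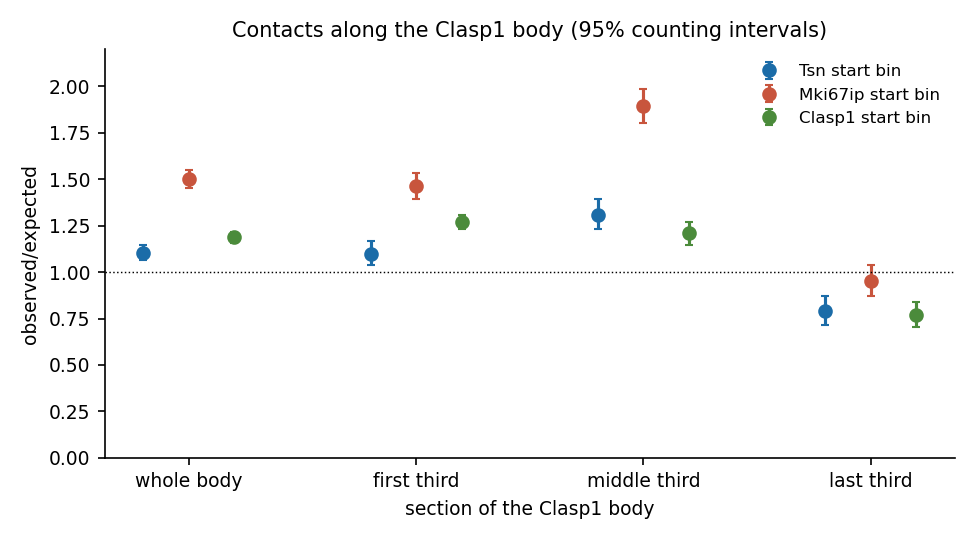
Observed/expected contacts (vertical axis, linear, from 0) of the 3 start bins with the whole Clasp1 body and with its first, middle and last sections; points are ratios of summed read pairs and bars are 95% counting intervals. Mki67ip is highest in each section, reaching 1.89 in the middle one, and in the last section all 3 points lie under 1.

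Among single bins, 1 bin was high from every start, and the others differed. For Mki67ip the highest bin was chr1:120370001-120380000, with 304 read pairs and a ratio of 2.63 (2.34 to 2.94). It holds the start of Gm11102, a gene model within the Clasp1 body. The bin chr1:120350001-120360000, with the start of the gene model 2900060B14Rik, had 379 read pairs and a ratio of 2.51 (2.27 to 2.78). The bin with the 2900060B14Rik start was also the highest for Tsn, with 249 read pairs and 1.77 (1.56 to 2.01), and for Clasp1, with 520 read pairs and 2.08 (1.91 to 2.27). The Gm11102 bin was at 1.72 from Tsn but at 1.51 from Clasp1, below the Clasp1 values of 1.62 and 1.67 at 120330001 and 120340001.

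Between these bins and the Clasp1 start Tsn had a dip. At chr1:120310001-120320000 it had 89 read pairs and a ratio of 0.710 (0.570 to 0.874). Mki67ip had 126 read pairs there and 0.924 (0.770 to 1.1), and Clasp1 373 and 0.944 (0.851 to 1.05), with intervals that include 1. The interval lay wholly above 1 in 7 of 23 body bins for Tsn, 14 of 23 for Mki67ip and 10 of 22 for Clasp1. It lay wholly below 1 in 4, 1 and 7 bins. The lowest body values were 0.568 at 120480001 for Tsn, on 11 read pairs, 0.748 at 120490001 for Mki67ip and 0.671 at 120490001 for Clasp1.

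**Figure D2:**
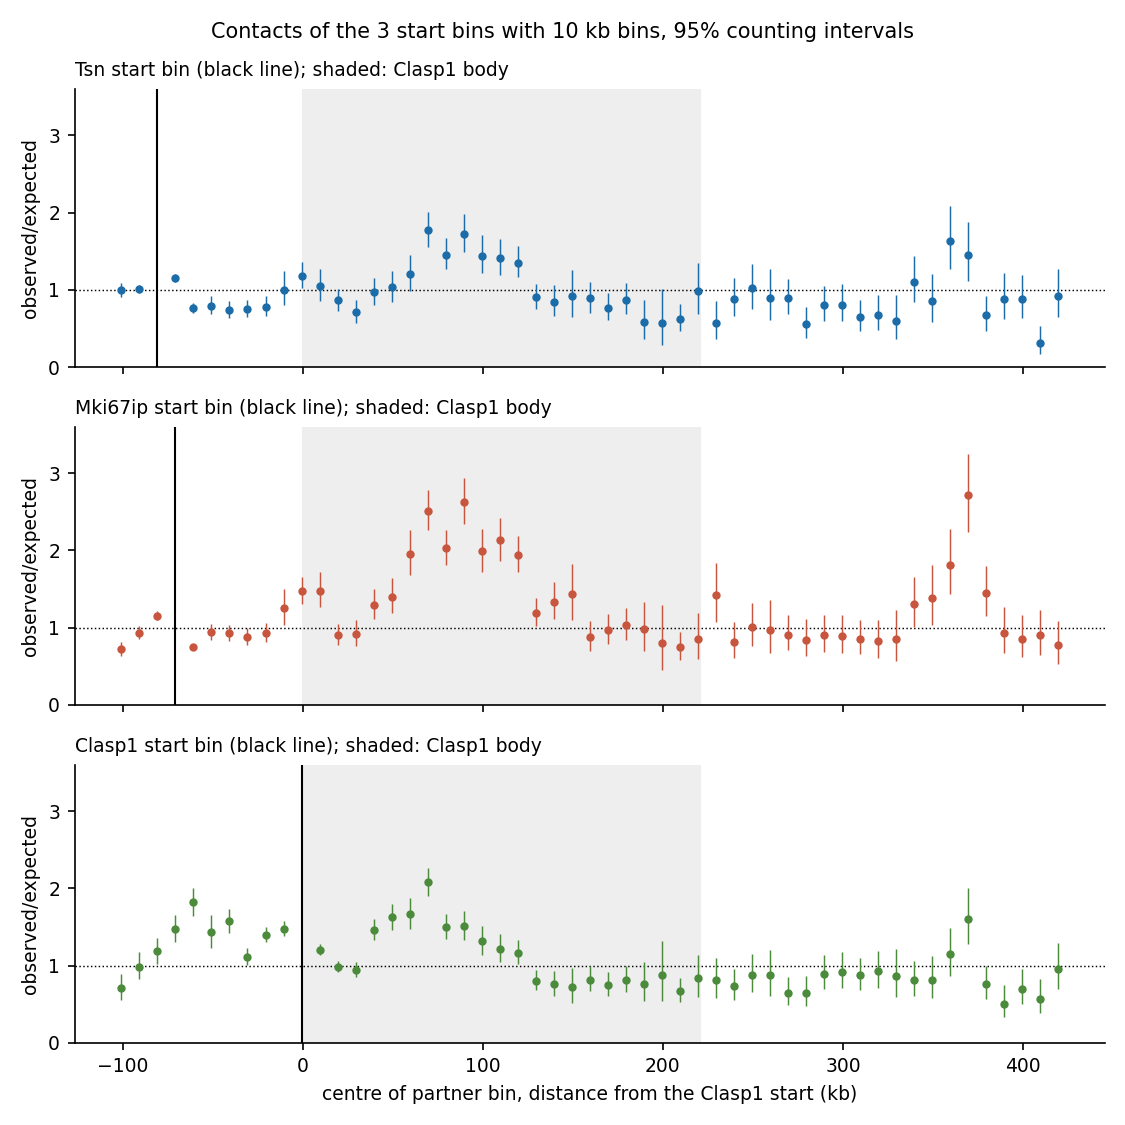
Observed/expected contacts (vertical axis, linear) of each start bin with single 10 kb bins, plotted by distance in kb of the partner bin from the Clasp1 start, with 95% counting intervals; the black line is the viewpoint and the shaded band the Clasp1 body. Mki67ip rises to 2.51 and 2.63 within the body and to 2.71 at a single bin near 370 kb, where Tsn and Clasp1 stand at 1.45 and 1.61.

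The high body contacts were not confined to the promoters. Of the 10 bins that lie between 120.18 Mb and the Clasp1 start bin, Mki67ip ranked 3 and Tsn 8 by contacts with the body. The highest were the bins just above the Mki67ip start, at 1.80 (1.75 to 1.85) for 120220001 and 1.80 (1.73 to 1.87) for 120230001. The former covers most of the Mki67ip gene and the latter only its last bases before the intergenic stretch. From there the ratio declined downward, to 1.501 at Mki67ip, 1.11 at Tsn, 0.993 at 120190001 and 0.887 in the lowest bin used. Toward Clasp1 it ran between 1.16 and 1.48 in the bins from 120240001 to 120280000.

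At 5 kb the bins divide into a part with the start and a part without it. For Mki67ip the part with the start, 120215001 to 120220000, had the higher body ratio, at 1.90 (1.80 to 2.00) on 1420 read pairs, against 1.35 (1.29 to 1.41) on 2209 read pairs. It was also the shallower, with a total of 5853 read pairs and 10 DpnII sites against 15272 read pairs and 27 sites. For Tsn the part with the start had 1.16 (1.10 to 1.22) and the other 0.926 (0.867 to 0.989). For Clasp1 these were 1.17 (1.13 to 1.21) and 1.09 (1.05 to 1.14). In all 3 genes the body ratio was thus higher from the 5 kb that held the start, with the widest gap in Mki67ip and overlapping intervals in Clasp1. Whether the site number and coverage move these ratios was not tested. The part with the start was the upper one in each bin. For Tsn and Mki67ip it thus lay nearer the body, and the 10 kb bins around them also rose upward, with or without a start. Holding the start and lying higher cannot be told apart here.

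Beyond the Clasp1 body Mki67ip had 1 further sharp maximum. In the bin chr1:120650001-120660000, 440 kb away, it had 116 read pairs where 42.8 were expected, a ratio of 2.71 (2.24 to 3.25). This bin overlaps no gene, lies 68.3 kb from Tcfcp2l1, carries an insulation minimum with a score of −0.73, and holds the minus-strand CTCF match printed above. The bins beside it were lower, at 1.82 for 120640001 and 1.45 for 120660001, and the next bin up was at 0.934. Tsn had 60 read pairs there and a ratio of 1.46 (1.11 to 1.87), and Clasp1 80 read pairs and 1.61 (1.27 to 2.00). The Mki67ip interval does not overlap those of the other starts.

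The peak was again shared with the bins next to Mki67ip. It was 2.58 (2.14 to 3.09) from 120220001, 2.81 (2.16 to 3.61) from 120230001 and 2.25 (1.78 to 2.79) from 120240001, whose intervals all overlap that of Mki67ip. The bin at 120230001, with the plus-strand match above Mki67ip, had the highest of these values. Over the 38 used bins that lie below the boundary bin and at least 100 kb from it, the Mki67ip start ranked 5, Clasp1 26 and Tsn 28. At 5 kb, the contact of the part with the Mki67ip start and 120655001 to 120660000, the part with the match, had 32 read pairs and a ratio of 3.88 (2.65 to 5.47). The contact with 120650001 to 120655000, which holds no match, had 19 read pairs and 3.90 (2.35 to 6.08). From the part without the start, the part with the match had 45 read pairs and 2.51 (1.83 to 3.36). These intervals all overlap.

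**Figure D3:**
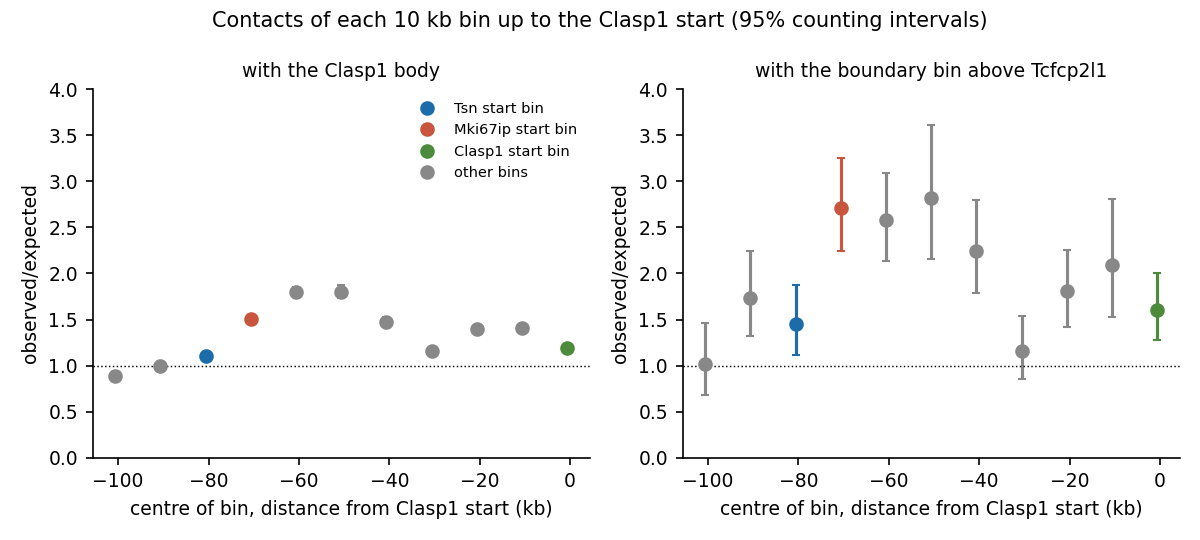
Observed/expected contacts (vertical axes, linear, from 0) of each 10 kb bin up to the Clasp1 start with the Clasp1 body (left) and with the boundary bin beyond Tcfcp2l1 (right), plotted by distance in kb from the Clasp1 start, with 95% counting intervals (smaller than most points on the left). Mki67ip stands at 1.501 and 2.71 and belongs to a run of high bins just above Tsn, whose own values are 1.11 and 1.46.

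Grouped by distance, the viewpoints differed at short range, and all of them exceeded expected from 1 Mb on. From 20 to 100 kb Clasp1 was raised, at 1.35 (1.32 to 1.39), while Tsn was at 0.860 (0.824 to 0.898) and Mki67ip at 0.974 (0.937 to 1.01). From 100 to 300 kb the order turned, with Mki67ip at 1.56 (1.51 to 1.62), Tsn at 1.10 (1.06 to 1.15) and Clasp1 at 0.882 (0.842 to 0.924). The 100 to 300 kb band holds most of the Clasp1 body for Tsn and Mki67ip, but for Clasp1 it begins past its highest bins. From 0.5 to 1 Mb all 3 were below expected, at 0.707 (0.665 to 0.751), 0.844 (0.799 to 0.892) and 0.937 (0.887 to 0.989) for Tsn, Mki67ip and Clasp1. In every band from 1 Mb on all 3 were above 1.

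**Figure D4:**
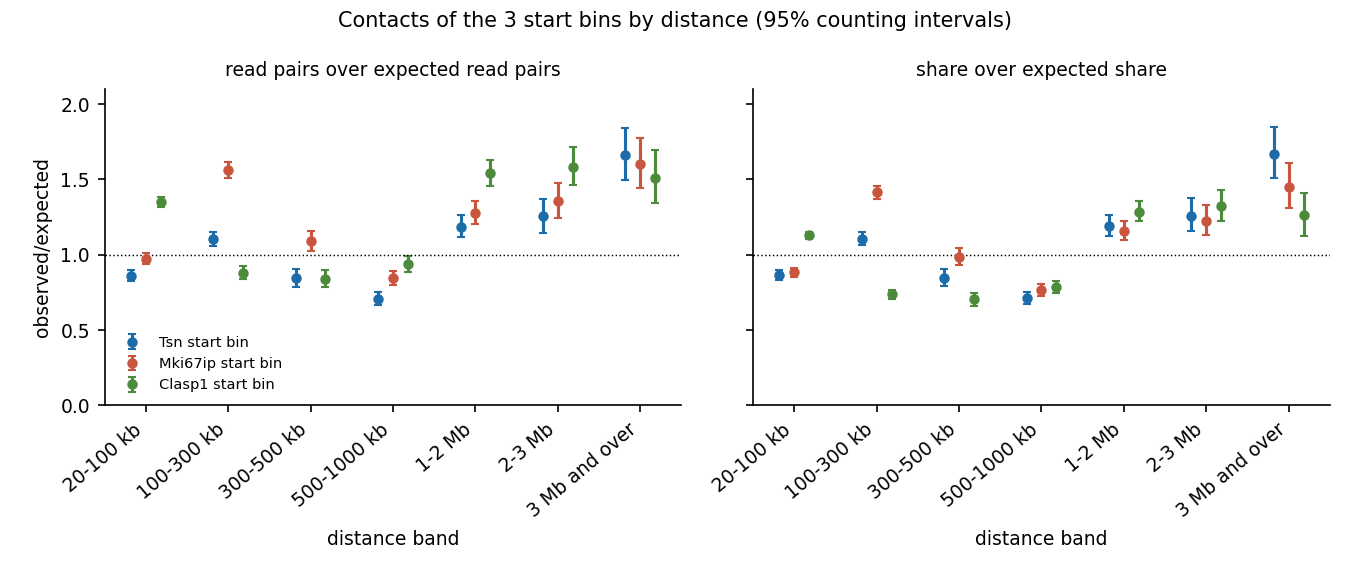
Observed/expected contacts of the 3 start bins by distance band (vertical axes, linear, from 0) as read pairs over expected read pairs (left) and as share over expected share (right), with 95% counting intervals. In both panels all points are below 1 from 0.5 to 1 Mb and above 1 from 1 Mb on, but the order of the genes at 1 to 2 Mb and at 2 to 3 Mb differs between panels.

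At 1 Mb or more, each start had more contacts than expected. Tsn had 1873 read pairs there, 16.5% of its contacts (15.9 to 17.2%) where 12.9% was expected. Mki67ip had 1990, or 14.97% (14.4 to 15.6%) where 12.3% was expected, and Clasp1 2159, or 14.8% (14.2 to 15.3%) where 11.4% was expected. Observed/expected was 1.28 (1.22 to 1.34), 1.35 (1.29 to 1.41) and 1.55 (1.48 to 1.62). The Tsn share was the highest and the Tsn ratio the lowest, so the order of the genes depends on the measure. At 5 kb, the far ratio of Clasp1 was higher from the part without its start, at 1.68 (1.58 to 1.785). From the part with the start it was 1.46 (1.38 to 1.55). For Tsn and Mki67ip the part with the start was the higher, at 1.33 against 1.11 and 1.52 against 1.30.

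Which genes differ at this range also depends on the scale. In observed/expected over common bins, Clasp1 was 1.18 times Tsn (1.11 to 1.26) and 1.12 times Mki67ip (1.05 to 1.19), and Mki67ip and Tsn did not differ beyond counting error (1.05, 0.985 to 1.12). As share over expected share the values were 1.28 (1.23 to 1.34) for Tsn, 1.22 (1.17 to 1.27) for Mki67ip and 1.29 (1.24 to 1.35) for Clasp1, with overlapping intervals. The order also changed within the range. At 3 Mb and over Tsn was the highest on both scales, with 1.66 (1.499 to 1.84), 1.60 (1.44 to 1.78) and 1.51 (1.34 to 1.69) in observed/expected for Tsn, Mki67ip and Clasp1. As shares these were 1.67 (1.51 to 1.85), 1.45 (1.31 to 1.61) and 1.26 (1.13 to 1.41), where the Tsn and Clasp1 intervals do not overlap. In observed/expected all intervals of this band overlap. The band begins at a different bin for each start and holds 120, 119 and 112 bins, so its order is not over common bins. The raised far contacts were not particular to the starts. All 25 bins of the stretch from 120.18 Mb to 120430000, which holds the viewpoints, had far ratios above 1, from 1.06 to 1.71 with a median of 1.38. Tsn exceeded 4 of the 25, Mki67ip 11 and Clasp1 19, and as share over expected share 16, 7 and 20. Over the 422 bins used the median was 0.956.

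The far contacts rested on few read pairs per bin, with a median of 5 for each gene, and 22 of 320 far bins had 0 read pairs with Tsn, 31 of 319 with Mki67ip and 29 of 312 with Clasp1. By the limit set here a count of 0 allows up to 3 read pairs, and by the exact Poisson interval up to 3.69. Sums over stretches between boundaries are therefore more reliable than single bins.

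Among these stretches, the one with Insig2, Ccdc93, Htr5b and Ddx18, from 123100001 to 123470000, stood out for all 3 starts at a distance of about 3 Mb. Insig2 encodes a membrane protein of the endoplasmic reticulum in sterol regulation, and Ddx18 a nucleolar RNA helicase. Tsn had 240 read pairs with it and a ratio of 2.29 (2.01 to 2.60), Mki67ip 248 and 2.33 (2.05 to 2.64), and Clasp1 260 and 2.46 (2.17 to 2.78). These intervals overlap, and no difference between the starts could be read. The bins of this stretch also had high far contacts with the map in general. Their ratios at 1 Mb or more ran from 0.807 at 123100001 to 1.80 at 123360001. The latter was the highest of the 422 bins used, whose median was 0.956. Whether the contacts with the 3 starts exceed that general level was not tested. The stretch of En1, next to it on the lower side, had 1.20 (1.07 to 1.36) from Tsn, 1.44 (1.29 to 1.60) from Mki67ip and 1.42 (1.27 to 1.58) from Clasp1. As share over expected share the En1 stretch was at 1.21, 1.30 and 1.18, with Clasp1 the lowest. The stretch above that of Insig2 to Ddx18, with no gene start, had 1.64 (1.27 to 2.07), 1.12 (0.822 to 1.48) and 1.43 (1.10 to 1.83).

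The nearest stretches were the low ones. Contacts with the stretch of Gli2, which encodes a transcription factor of Hedgehog signalling, were 0.692 (0.645 to 0.741) for Tsn, 0.810 (0.760 to 0.862) for Mki67ip and 0.834 (0.786 to 0.885) for Clasp1. With the stretch of Tcfcp2l1, which encodes a transcription factor of the grainyhead family and begins 18.51 kb past the end of Clasp1, they were 0.817 (0.766 to 0.870), 0.977 (0.923 to 1.03) and 0.811 (0.766 to 0.858). The stretch of Inhbb, an activin and inhibin subunit gene, gave 0.810 (0.745 to 0.879), 0.988 (0.917 to 1.06) and 1.00 (0.931 to 1.07). As share over expected share the order differed, and Clasp1 was lowest at the Tcfcp2l1 stretch, with 0.820, 0.885 and 0.677. It was 0.695, 0.734 and 0.697 at the Gli2 stretch and 0.813, 0.895 and 0.836 at the Inhbb stretch, so all 3 genes were below expected in all 3 stretches on that scale.

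Between them and the Insig2 to Ddx18 stretch the values were above 1. With the stretch from Ralb to Gm101 they were 1.18, 1.31 and 1.499 for Tsn, Mki67ip and Clasp1, and with the stretch from Steap3 to Marco 1.31, 1.21 and 1.65. The small stretch from Tmem37 to 3110009E18Rik had 106, 144 and 152 read pairs, with ratios of 1.36 (1.12 to 1.65), 1.81 (1.53 to 2.14) and 1.88 (1.59 to 2.2). As share over expected share that stretch was at 1.37, 1.64 and 1.57, with Mki67ip the highest. The last stretch of the map, 640 kb without a gene start, was at 1.08, 1.03 and 0.879, with intervals that all include 1.

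**Figure D5:**
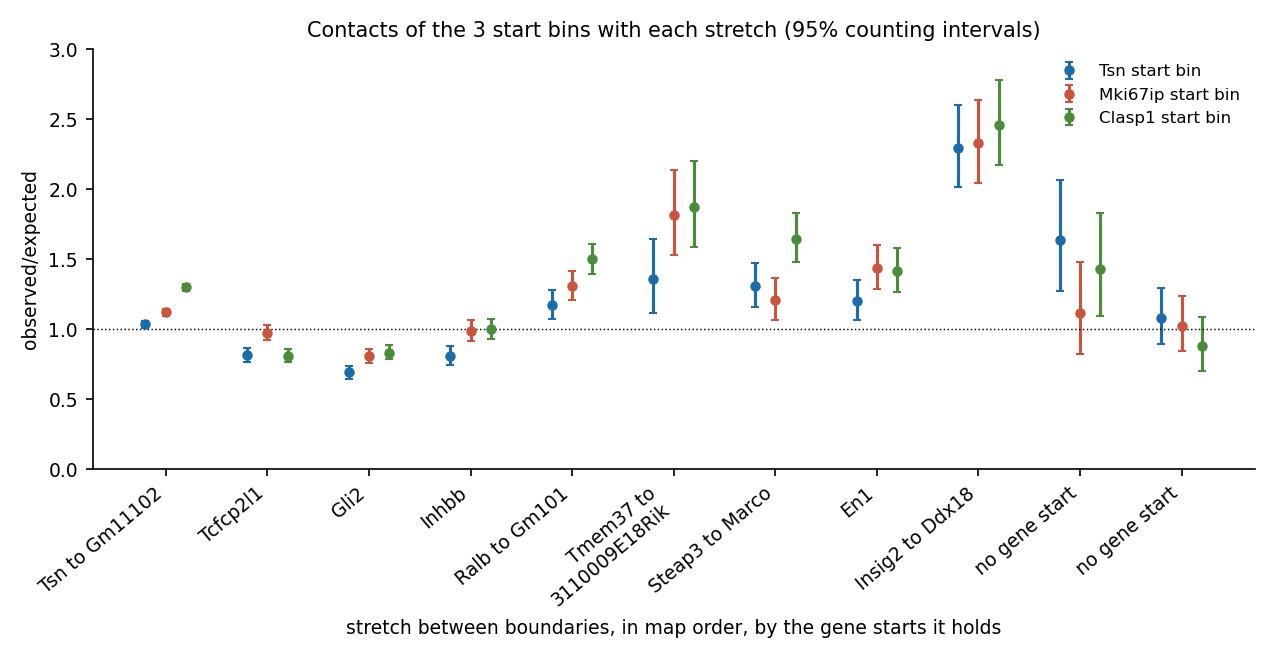
Observed/expected contacts (vertical axis, linear, from 0) of the 3 start bins with each stretch between boundaries, in map order and named by the gene starts it holds, with 95% counting intervals. All 3 genes fall under 1 at the Gli2 stretch, at 0.692, 0.810 and 0.834, and are highest at the Insig2 to Ddx18 stretch, at 2.29, 2.33 and 2.46.

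Single partner bins were called enriched when they lay 100 kb or more away, had at least 10 read pairs and had a lower 95% bound of observed/expected above 1.5. Tsn had 12 such partners of 149 bins with enough read pairs (8.05%), Mki67ip 18 of 167 (10.8%) and Clasp1 21 of 173 (12.1%). Over all bin pairs of the usable map 5.92% were called, 5.95% at 100 kb to 1 Mb and 5.84% at 1 Mb or more. At 100 kb to 1 Mb the genes lay on both sides of that background, with 1 of 86 for Tsn, 8 of 90 for Mki67ip and 0 of 91 for Clasp1. Of the 8 partners of Mki67ip, 7 lay in the Clasp1 body, in an unbroken run from 120340001 to 120410000, and the eighth was the boundary bin at 120650001. The near partner of Tsn was the body bin with the 2900060B14Rik start.

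At 1 Mb or more Tsn had 11 called partners of 63, Mki67ip 10 of 77 and Clasp1 21 of 82. Few read pairs were expected in these bins, so a minimum of 10 keeps chiefly those that came out high, and the shares are to be read with that. With a minimum of 20 read pairs over the whole range from 100 kb up, 1, 8 and 1 partners were called for Tsn, Mki67ip and Clasp1. Those left for Tsn and Mki67ip all lay nearer than 1 Mb. The one left for Clasp1 was a far bin, 121420001 with 41 read pairs. With a lower bound above 2 over the same whole range the partners numbered 6, 7 and 5. Of the 11 far partners of Tsn and the 10 of Mki67ip, 6 were common, and Clasp1 shared 4 with each. Over the 31 bins called from any start, 3 were common to all: 123210001 in Insig2, 123390001 in Ccdc93 and 123460001 with the Ddx18 start. Each had 10 to 15 read pairs, at or little above the minimum, and lies in the Insig2 to Ddx18 stretch. The overlap to be expected was not computed, so no result is read from these overlaps.

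The far partners with the highest lower bounds were mostly in the Insig2 to Ddx18 stretch, which had high far contacts of its own. For Tsn they were 123390001 in Ccdc93 with 15 read pairs and a ratio of 5.06 (2.83 to 8.34), 123440001 with 15 and 4.55, 123460001 with 11 and 4.81, and 123220001 with the Insig2 start, 11 and 4.34. The fifth lay elsewhere, in the bin 121730001 with the start of Ptpn4, which encodes a cytoplasmic tyrosine phosphatase, with 19 read pairs and 3.63 (2.19 to 5.67). For Mki67ip the highest was 123450001 in Ddx18, with 14 read pairs where 1.84 were expected, a ratio of 7.62 (4.17 to 12.8). It was followed by 123460001 with 12 and 5.12, 123440001 with 13 and 3.88, and the Ptpn4 start with 17 read pairs and 3.18 (1.85 to 5.09). All 17 came from the 5 kb of the bin without the Mki67ip start.

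Another named partner of Mki67ip, 124220001, had 11 read pairs 4.01 Mb away and a ratio of 4.23. That ratio was 1.72 when the expected value was taken from every bin of the map. For Clasp1 the 5 were 123430001 with 10 read pairs and 5.33, 123380001 with 10 and 4.94, 123360001 with 12 and 4.58, 123330001 with 12 and 4.30, and 123460001 with 11 and 4.41. Of these, 3 lie in Ccdc93, 1 holds the Ddx18 start, and 123430001 lies 5 kb from Htr5b, a serotonin receptor gene.

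Nearer than 1 Mb, the other bins named for Tsn were 120370001 with 187 read pairs and 1.72 (1.48 to 1.99), 120360001 and 120380001 in the body with 1.45 and 1.44, and 120640001 beside the boundary with 66 read pairs and 1.64 (1.27 to 2.08). The other body bins named for Mki67ip were 120390001 with 229 read pairs and 2.13, and 120360001 with 311 and 2.03. For Clasp1, whose highest body bins lie too near to enter the rule, they were the boundary bin 120650001 with 1.61, the body bins 120380001 with 1.32 and 120390001 with 1.22, and the Gli2 bins 120950001 and 120920001. The former holds the Gli2 start and had 47 read pairs, 1.54 times expected (1.13 to 2.05), and the latter 51 and 1.46 (1.09 to 1.92). None of these Clasp1 partners passed the rule. Of the 20 different bins named as partners, 3 held a CTCF match, beside 29 of the 422 bins used (6.87%). No result about the partners is read from that count.

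For the other 21 bins with a protein-coding start, the median observed/expected was 1.52 from Tsn, 1.71 from Mki67ip and 1.78 from Clasp1, with 18, 18 and 19 of the 21 above 1. The interval lay wholly above 1 for 7, 8 and 11 of them. Among the 398 bins without a gene start the medians were 1.01, 1.08 and 1.13, with 50.8, 55.8 and 56.3% above 1 and 9.55, 15.1 and 19.4% with the whole interval above 1. Called enriched were 5 from Tsn (2900060B14Rik, Ptpn4, Insig2, Ccdc93 and Ddx18), 5 from Mki67ip (2900060B14Rik, Gm11102, Ptpn4, Ccdc93 and Ddx18) and 2 from Clasp1 (Steap3 and Ddx18). The 2900060B14Rik and Gm11102 starts, 70 and 90 kb from the Clasp1 start bin, lie too near to be called from it. Over all partner bins with enough read pairs, 8.05, 10.8 and 12.1% were called. No difference among the genes is read from the counts of starts. The Ccdc93 start had 13 read pairs and 4.00 from Tsn, 11 and 3.33 from Mki67ip, and 6 and 1.78 from Clasp1. Steap3, which encodes a ferrireductase of iron uptake, had 14 read pairs and 3.27 (1.79 to 5.49) from Clasp1, and 7 read pairs with each of the other starts, at 1.75 and 1.71. The Ddx18 start was the one called from all 3, on 11, 12 and 11 read pairs.

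Only 6 gene starts from Tsn, 6 from Mki67ip and 7 from Clasp1 had at least 10 expected read pairs. Among these, the lowest from every viewpoint was Tcfcp2l1, the next gene up. It had 54 read pairs and 0.888 (0.667 to 1.16) from Tsn, 52 and 0.819 (0.612 to 1.07) from Mki67ip, and 54 and 0.734 (0.552 to 0.958) from Clasp1. Only the Clasp1 interval excludes 1. The Gli2 start was at 1.03 from Tsn, 1.34 from Mki67ip and 1.54 from Clasp1, and the Inhbb start at 1.05, 1.44 and 1.77. The start of Ralb, a small GTPase gene, had 1.33, 1.11 and 1.79. From Clasp1 the highest was Epb4.1l5, which encodes a FERM domain protein, with 21 read pairs and 2.09 (1.29 to 3.20). The 2900060B14Rik start was level with it, at 2.08 (1.91 to 2.27). The Gm11102 start, at 2.63 from Mki67ip and 1.72 from Tsn, was at 1.51 (1.33 to 1.701) from Clasp1. There it was among the 3 lowest of the 7, although its interval lies above 1. The En1 start had 7, 11 and 8 read pairs, with ratios of 1.52, 2.34 and 1.7.

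Raised far contacts were not limited to genes. Bins with any gene had 1.09 times the observed/expected of bins without one from Tsn (0.994 to 1.20), 1.20 times from Mki67ip (1.10 to 1.31) and 1.13 times from Clasp1 (1.04 to 1.23). The median of this ratio over the 422 bins used was 1.16. In the 17 far bins with a gene start, the sums were 176, 187 and 208 read pairs, with ratios of 1.65 (1.42 to 1.91), 1.72 (1.48 to 1.98) and 1.85 (1.61 to 2.12). In the bins with no gene they were 1.23, 1.24 and 1.46.

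The contact profiles of the genes were compared with those of all gene starts by Pearson's r of log2 observed/expected over shared partner bins. These bins come from the same map and share their coverage, so r is a description only. The start most like each of the 3 was the same one, 2900060B14Rik, with r = 0.59 over 183 bins for Clasp1, 0.51 over 173 bins for Tsn and 0.41 over 179 bins for Mki67ip. Leaving the other 2 viewpoints aside, next came Gm11102, with 0.47, 0.41 and 0.32. The next was Tcfcp2l1 for Clasp1 and Tsn, with 0.37 and 0.39, and Epb4.1l5 for Mki67ip, with 0.30. Among the 3 genes, Tsn and Clasp1 had r = 0.47 over 180 bins. The adjacent Tsn and Mki67ip had 0.34 over 187 bins, and Mki67ip and Clasp1 0.25 over 186. Each comparison left out the bins less than 100 kb from either start, so the sets of bins differ. The r of Tsn was thus higher with Clasp1 than with its neighbour, but not over the same bins.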

How the data were processed

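Per the submitters' processing notes, Bowtie2 2.3.4.1, Juicer 1.7.6 and SAMtools were used on mm9. The deposited file names add HiCUP, a mapping quality of 30 and 50 bp. The authors deposited raw counts of read pairs per bin pair and a balanced contact signal (KR, read as Knight-Ruiz balancing), for 1 map merged from 2 samples. The map held 6484654 read pairs in 475 bins of 10 kb. The 10 and 5 kb tables were used. In the 25 and 50 kb tables, not used here, Tsn and Mki67ip share a bin.

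Both samples, which may be separate or runs of 1 library, were in 1 group, and the values are the authors' pooled values. The expected count was the mean KR value at a distance, over bin pairs from 120.18 Mb up, times the balancing factors of both bins. From 1 Mb on, distances within 100 kb were pooled. Observed/expected has exact Poisson 95% intervals, with the expected count taken as fixed, and shares have Wilson 95% intervals. They cover counting error only, since read pairs carried no molecular identifiers. Boundaries were minima of insulation (150 kb window) with a prominence of at least 0.2. Bins under 25% of the median total were not named.

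The genes, lists and rules were chosen with earlier results of these data known. Named were the 5 partners at 100 kb to 1 Mb and the 5 at 1 Mb or more with the highest lower bounds, gene starts called enriched or among the 3 highest and 3 lowest (at least 10 expected read pairs), and the 3 starts most alike in profile (0.5 added before log2, at least 5 expected). Other bins were named after their values were seen. The CTCF core consensus, of 12 bases with degenerate positions, was searched on both strands of NCBIM37. Code was tested on simulated data. Python 3.11.15, numpy 2.4.6, scipy 1.17.1, pandas 2.3.3, pysam 0.24.0 and matplotlib 3.10.9 were used. Alternatives were another expected value, 5 kb bins, balanced values, other limits and stricter calls.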

Additional observations from a re-analysis of the deposited data

Results flagged for a closer look

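Contacts with the 53 bins under 120.18 Mb entered no comparison, although each start had read pairs there. Tsn had 850 read pairs with those bins, Mki67ip 599 and Clasp1 285, each above the limit of 3 read pairs set here for a count of 0 (3.69 by the exact Poisson interval). They were 6.98%, 4.31% and 1.91% of the read pairs of each start with all other bins. Most came from the 4 bins of usual coverage just under the limit, with 495, 368 and 175 read pairs. The other 49 bins had totals under 25% of the median and gave 355, 231 and 110.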

How the results depend on the processing

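Values follow in the order Tsn, Mki67ip, Clasp1. The share of contacts going up was 80.2, 78.9 and 65.1% with balanced (KR) values, 85.0, 79.5 and 76.5% with 5 kb bins, and 56.9, 42.1 and 55.4% with equal numbers of bins on both sides. The share in the Clasp1 body was 20.5, 26.1 and 38.5% with balanced values, 20.9, 26.8 and 45.0% with 5 kb bins, and 20.7% (Tsn) and 25.9% (Mki67ip) with bins wholly inside it. The share at 1 Mb or more was 15.6, 14.3 and 12.8% with balanced values and 15.3% (Tsn) and 12.8% (Mki67ip) with 5 kb bins. At 0.5 Mb or more it was 25.9, 24.6 and 23.8%. Body observed/expected was 1.05, 1.43 and 1.15 with every bin of the map in the expected value and 1.06, 1.45 and 1.00 with distance alone. As share over expected share it was 1.36 (Mki67ip) and 0.992 (Clasp1), which turned the direction for Clasp1, as equal numbers of bins turned the upward share of Mki67ip from most of its contacts to the smaller part. Far observed/expected was 1.21, 1.27 and 1.47 with every bin, 1.47 (Clasp1) with distance alone, 1.47, 1.55 and 1.77 with the median by distance, and 1.22 (Mki67ip) and 1.29 (Clasp1) as share over expected share. Enriched partners numbered 6, 7 and 5 with a lower bound above 2, and 1, 8 and 1 with at least 20 read pairs. The Tsn and Mki67ip contact was 1.05 with distance alone. The cause of these moves was not tested, apart from the smaller set each stricter rule leaves.

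The other 26 of 75 alternatives kept direction and size, among them far values over 1 to 3.5 Mb and with unpooled distances. Those 2 settings, the share over expected share and the alternatives for named partners were chosen after seeing the data. For named partners, 84 of 90 alternatives moved the value by less than its interval, 6 moved it further, and none fell under 1 (1.19 to 10.6). No paired analysis was possible because the authors merged both samples, so neither could be left out. Depth limits the far bins most, where the median was 5 read pairs.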
